A study of Homo sapiens with 12 samples.

Results

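The baseline of 2 human cancer cell lines was compared in 5 of the 12 RNA-seq libraries of the series. TOV-112D is an ovarian carcinoma line that carries p53-R175H, a misfolded form of the tumour suppressor p53, and Saos-2 is an osteosarcoma line that lacks p53. The 2 libraries labelled TOV-112D (DMSO 1 and DMSO 2) came from cells given DMSO, the vehicle of the compounds used elsewhere in the series, for 3 h, and the 3 libraries labelled Saos-2 (null 1, null 2 and null 3) came from p53-null cells after 16 h labelled as induction, the inducer of the p53 transgene being doxycycline in the study's methods, where the p53-null control is the parental line. The other 7 libraries are TOV-112D cells with UCI-1001 (2) or UCI-1014 (2) and Saos-2 cells with inducible wild-type p53 (p53-WT, 3). TOV-112D was grown in MCDB 105 and 199 medium and Saos-2 in DMEM, both with serum. Cell line, p53 status, medium, treatment, time and any batch therefore fall on the same contrast and cannot be told apart, and the labels do not say whether the libraries of a group came from separate cultures, so the p-values measure the spread between these libraries, which may be technical.

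p53 is a transcription factor that stressed cells stabilise. It switches on genes for growth arrest, such as CDKN1A, for cell death, such as BBC3 and PMAIP1, and for its own inhibitor MDM2, which marks p53 for degradation. Missense forms such as p53-R175H accumulate but bind these genes poorly, and a null line has no p53 protein to bind them, so both lines are used as backgrounds in which p53 activity is low.

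Several markers of cell origin went against the tissue named by the labels, and this is given before any result. Whether either line is the one labelled was not tested. The libraries labelled Saos-2 held few reads of the fibrillar collagen genes of osteoblasts, and the libraries labelled TOV-112D held more of them. Genes of mineralised matrix were low in both, with a higher sum in the libraries labelled Saos-2. ALPL, the bone alkaline phosphatase for which Saos-2 is a standard source, had 0 to 2 counts in each null library. KRT18, a simple epithelial keratin, was at 0 counts in both DMSO libraries and at 550 to 602 CPM in the null libraries. CPM are counts scaled to a common library size after TMM scaling. The names DMSO libraries and null libraries are used below for what the labels say, and no other name is given to either.

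Library totals ranged from 17880415 to 21513227 counts, and 3 counts, the limit set for a gene at 0, corresponded to 0.142 to 0.163 CPM. Library null 1 stood apart from null 2 and null 3. The chi-square per degree of freedom over genes was 24.7 and 23 for the pairs with null 1, 3.79 between null 2 and null 3, and 2.08 between the DMSO libraries. Mitochondrially encoded genes took 4.79% to 5.28% of the DMSO libraries and 1.32% to 1.46% of the null libraries. Ribosomal protein genes took 5.05% to 5.08% and 7.01% to 9.03%, with the highest share in null 1.

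Gene expression differed between the lines over most of the transcriptome. Of 14836 genes tested, 11621 (78.3%) differed at an adjusted p under 0.05 (edgeR quasi-likelihood test, Benjamini-Hochberg adjustment). A gene is called below when it also differed by more than 1 on the log2 scale, that is 2-fold. By this rule 6389 genes (43.1%) were called, 3360 (22.6%) higher in the DMSO libraries and 3029 (20.4%) higher in the null libraries. These percentages are the background against which each count below is read, since a gene list with about 43.1% of its members called is no different in that respect from all genes. All log2 differences are DMSO minus null.

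Osteoblast genes were higher in the libraries labelled ovarian carcinoma than in those labelled osteosarcoma, with few exceptions. Of 31 genes in the list, 22 passed the filter on low counts, 17 were called higher in the DMSO libraries and 4 higher in the null libraries. The median log2 difference was 3.55, against -0.01 over all genes tested. The list's summed level was 2706 to 2764 CPM in the DMSO libraries and 248 to 272 CPM in the null libraries, and 15 of its 31 genes had at most 3 counts in every null library against 9 in the DMSO libraries. In bulk RNA, fewer cells of a type and less RNA per cell cannot be told apart.

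All 5 fibrillar collagen genes of the list were higher in the DMSO libraries. COL1A1, the alpha 1 chain of type I collagen and the chief protein of bone matrix, had 48.4 and 48.7 CPM in the DMSO libraries and 1.33, 1.79 and 1.98 CPM in null 1 to null 3. The groups did not overlap, and the difference was 4.83 (SE 0.14, adjusted p = 6.2e-09), or 28.4-fold. COL5A2, a type V chain, had 1450 and 1418 CPM against 1.83 to 2.31 CPM. COL5A1, its partner chain, had 46.8 and 44.6 CPM and not a single count in the null libraries, so it was at least 298-fold higher in the DMSO libraries. The 5 collagen-processing genes followed the same direction, among them the collagen chaperone SERPINH1 (370 and 356 CPM against 80.8 to 90.0 CPM, log2 difference 2.11) and LOX, which cross-links collagen (2.83).

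Of 5 osteoblast transcription factors tested, 3 were called higher in the DMSO libraries and 1 higher in the null libraries. MSX2 (168 and 164 CPM against 0.46 to 0.94 CPM) and DLX5 (85.3 and 88.3 CPM against 1.58 to 2.27 CPM) were far higher in the DMSO libraries. RUNX2, the factor that starts the osteoblast programme, had 7.92 and 9.24 CPM against 9.09, 13.1 and 11.3 CPM. Its groups overlapped and its difference of -0.38 did not pass the test (adjusted p = 0.064). SP7, which acts after RUNX2, was at 0 counts in all 3 null libraries and at 0.05 and 0.38 CPM in the DMSO libraries.

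Most genes of mineralised matrix were near 0 in both lines. Their sum was 4.04 and 4.30 CPM in the DMSO libraries and 15.9 to 20.0 CPM in the null libraries. Of 4 tested, 2 were called higher in the DMSO libraries and 2 higher in the null libraries. IBSP, BGLAP, DMP1, MEPE and IFITM5 were not tested because of their low counts. SPP1, which encodes osteopontin, was the exception, with 18.7, 14.8 and 14.5 CPM in the null libraries and 2 counts in all in the DMSO libraries. TNFRSF11B, the decoy receptor for the osteoclast factor RANKL, had 2.05 to 2.82 CPM in the null libraries and 1 count in all in the DMSO libraries. The signalling receptor PTH1R and the secreted antagonist SOST were at 0 counts in every null library.

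Markers of ovarian and Müllerian epithelium were scarce in the DMSO libraries. Of 15 genes, 4 passed the filter. PAX8, WT1 and MECOM, transcription factors used to identify tumours of this lineage, were all higher in the null libraries. PAX8 had 1 count in all in the DMSO libraries and 3.53 to 4.25 CPM in the null libraries. WT1 had 1.24 and 1.90 CPM against 13.1 to 15.1 CPM, and MECOM 1 count in all against 36.5 to 40.1 CPM. MUC1, a surface mucin, was the single gene of the list higher in the DMSO libraries (5.38 and 5.44 CPM against 0.99 to 1.37 CPM), and MUC16, which encodes the CA-125 antigen, had 1 count in the 5 libraries.

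Epithelial genes had members called in both directions. Of 16 genes, 10 were tested, 2 were called higher in the DMSO libraries and 6 in the null libraries. The keratins of simple epithelia were carried by the null libraries: KRT8 had 210 to 222 CPM there and 4 counts in all in the DMSO libraries, KRT18 was at least 3557-fold higher, and KRT7 had 2.2 to 3.21 CPM against 0. The adhesion proteins EPCAM (1.81 and 3.10 CPM against 0 counts) and CDH1 (0.83 and 1.30 CPM against 0.10 to 0.28 CPM) were higher in the DMSO libraries at low levels. The tight junction claudins CLDN3 (1.38 to 1.53 CPM against 0 counts) and CLDN4 (0.71 to 1.33 CPM against 0.26 and 0.38 CPM, and not called without DMSO 1) were higher in the null libraries, so the adhesion genes had no common direction. The median difference of the tested genes was -3.87, and -1.51 with genes at 0 counts in a line set to their bound of 3 counts per library.

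Mesenchymal genes were divided between the lines, with 7 of 18 tested genes higher in the DMSO libraries, 8 higher in the null libraries and a median of -0.07. On the DMSO side were the intermediate filament gene VIM (7971 and 8075 CPM against 2097 to 2529 CPM), the surface glycoprotein gene THY1 (95.4 and 96.2 CPM against 0 counts, at least 624-fold) and the transcription factors TWIST1 (460 and 467 CPM against 6.47 to 7.46 CPM), TWIST2, PRRX1 and ZEB2. On the null side were CD44, the hyaluronan receptor (332 to 339 CPM against 3 counts in all), and NT5E, the ectonucleotidase CD73 (434 to 458 CPM against 0.47 and 0.82 CPM). The muscle and fibroblast list holds genes of both cell types, and all 6 of its tested genes were higher in the DMSO libraries. They were led by the proteoglycans LUM (520 and 517 CPM against 1 count in all) and DCN (182 and 178 CPM against 0.05 to 0.30 CPM) and the receptor PDGFRA (24.1 and 25.3 CPM against 0.20 to 0.47 CPM). MYOD1, which defines muscle, was at 0 counts in all 5 libraries.

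Targets of beta-catenin, the effector of Wnt signalling, were high in the DMSO libraries. Of 11 genes tested, 9 were called higher there and 1 lower. AXIN2, a feedback inhibitor of the pathway, had 520 and 533 CPM against 1.78, 2.15 and 2.55 CPM, a log2 difference of 7.92 (SE 0.13, adjusted p = 6.6e-10). NKD1 and APCDD1, also feedback inhibitors, had 3 counts and 1 count in all in the null libraries, against 40.7 and 43.4 CPM for NKD1 and 44 and 48.4 CPM for APCDD1 in the DMSO libraries. DKK1, a secreted inhibitor, had 277 and 275 CPM against 10.6 to 13.4 CPM. The exception was the transcription factor gene SP5, at 0 counts in the DMSO libraries and at 1.53 to 2.46 CPM in the null libraries. CTNNB1, the gene of beta-catenin, did not pass the test (334 and 334 CPM against 354 to 386 CPM, log2 difference -0.13, adjusted p = 0.15).

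**Figure D1:**
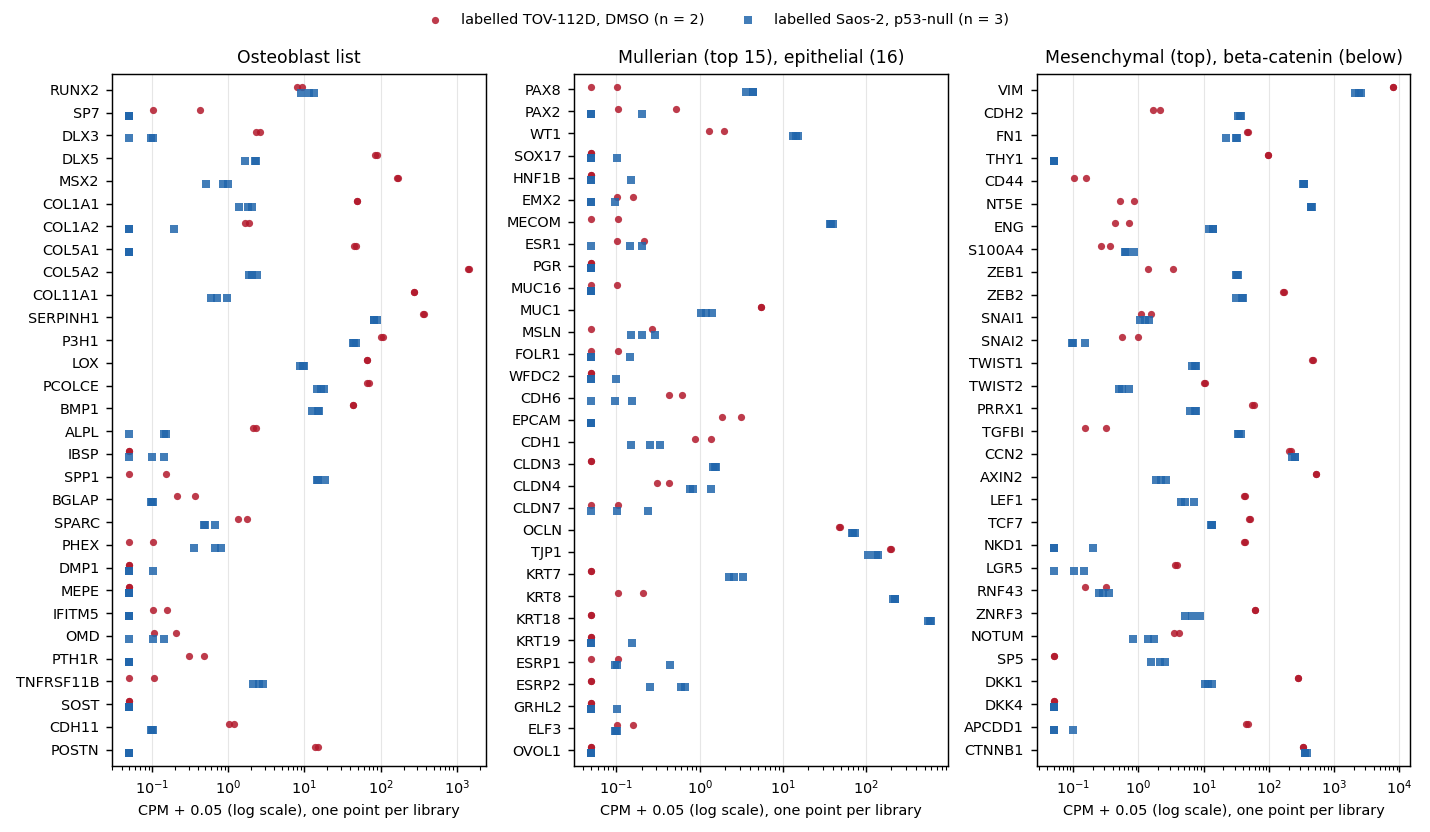
Level of the identity genes in every library, as CPM + 0.05 on a log axis, with DMSO libraries as circles and null libraries as squares. Points at the left edge are libraries at 0 counts. Most fibrillar collagen and beta-catenin target genes lie to the right in the DMSO libraries, and KRT8, KRT18 and CD44 to the right in the null libraries.

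Neuronal and neuroendocrine genes also divided the lines. Of 9 genes tested, 7 were higher in the DMSO libraries, including the RNA-binding proteins ELAVL3 (33.9 and 32.0 CPM against 3 counts in all) and ELAVL4, the granule protein CHGA (5.28 and 4.02 CPM against 0 counts, at least 30.3-fold) and the tubulin regulator STMN2 (15.9 and 14.8 CPM against 1 count in all). TUBB3, a neuronal tubulin that many tumour lines express, was higher in the null libraries (2086 to 2253 CPM against 390 and 391 CPM), as was the ubiquitin hydrolase UCHL1 (722 to 896 CPM against 248 and 254 CPM). INSM1, which marks neuroendocrine cells, had at most 1 count in a library. Of 11 blood and endothelial genes 4 were tested, 1 higher in the DMSO libraries and 2 higher in the null libraries. PTPRC, the pan-leukocyte antigen CD45, had 2.95 and 1.74 CPM against 0.40 to 0.61 CPM, ITGAM had 5.01 to 6.09 CPM in the null libraries and 0 counts in the DMSO libraries, and CD3E was at 0 counts in all 5 libraries. Among 7 tested genes of the pluripotency and oncofetal list, of which 1 was called higher in the DMSO libraries and 2 higher in the null libraries, LIN28B, a repressor of let-7 microRNAs, was higher in the null libraries (165 to 179 CPM against 18 and 19.3 CPM) and SALL4 in the DMSO libraries (15.2 and 15.1 CPM against 0.52 to 0.82 CPM), while SOX2 had 3.32 to 3.61 CPM against 2 counts in all.

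The p53 target genes did not move together between the mutant and the null line. Of 54 targets, 48 were tested, 9 were called higher in the DMSO libraries and 12 higher in the null libraries, which is 43.8% of those tested against 43.1% of all genes. The median difference was 0.05. The summed level of the list was 2114 and 2129 CPM in the DMSO libraries and 1643 to 1799 CPM in the null libraries, and PLK2 alone gave 772 CPM of the former. Most of the same genes were higher in the p53-WT libraries: 47 of the 48 were higher in every p53-WT library than in every null library, with E2F7 the exception. In 45 of the 48, both DMSO libraries lay below every p53-WT library. PLK2 and E2F7 lay above, and TNFRSF10C overlapped.

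Among the arrest genes, CDKN1A, the inhibitor p21 that stops the cell cycle in G1, was lower in the DMSO libraries. It had 7.82 and 9.24 CPM against 84.9, 61.4 and 62.5 CPM, a difference of -3.03 (SE 0.18, adjusted p = 5.4e-07), so the null libraries were 8.16-fold higher. Null 1 was the highest of them, and the difference was -2.87 without it. In the p53-WT libraries CDKN1A averaged 8769 CPM, far above both. GADD45A, a stress-induced arrest and repair factor, followed CDKN1A, with 3.83 and 3.70 CPM against 62.1 to 67.5 CPM, a difference of -4.11. The kinase gene PLK3 (-1.62) and the cyclin D cofactor SERTAD1 (-1.40) were also higher in the null libraries. PLK2, a polo-like kinase, was the largest exception, with 772 and 772 CPM against 65.6 to 72.4 CPM (difference 3.51, SE 0.08), above even the 402 CPM of the p53-WT libraries. BTG2, an antiproliferative cofactor, had 8.80 and 8.81 CPM against 1.65 to 1.89 CPM (2.30).

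The feedback genes differed among themselves. MDM2, the ubiquitin ligase for p53, had 130 and 130 CPM in the DMSO libraries and 160, 141 and 133 CPM in the null libraries. The difference of -0.15 (SE 0.09, adjusted p = 0.18) did not pass the test, though every null library lay above both DMSO libraries. PPM1D, the phosphatase WIP1 that ends the p53 response, differed by 0.65 and was not called. CCNG1, cyclin G1, was higher in the null libraries, with 64.0 and 66.0 CPM against 291 to 341 CPM (-2.27).

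The apoptosis genes gave no common direction, with 2 of 12 tested called higher in the DMSO libraries and 3 higher in the null libraries. BBC3, which encodes the BH3-only protein PUMA, had 2.95 and 3.32 CPM against 2.72, 2.97 and 2.27 CPM, with overlapping groups and a difference of 0.24 (SE 0.20, adjusted p = 0.29). PMAIP1, which encodes NOXA, had 12 and 12.6 CPM against 39.2, 32.9 and 29.0 CPM, a difference of -1.45 (SE 0.14, adjusted p = 1.4e-05). TP53INP1, a promoter of p53-dependent death, had 1 count in each DMSO library and 8.78 to 9.93 CPM in the null libraries, a ratio of 176 (counting interval 48.6 to 1451, which like the other such intervals is a 95% interval that covers counting error only). The death receptor gene FAS was higher in the null libraries (-1.94). TP53I3, a quinone oxidoreductase (72.9 and 68.6 CPM against 14.7 to 19.3 CPM, 2.09), and APAF1, the core of the apoptosome (1.16), were higher in the DMSO libraries. BAX (0.40) and the TRAIL receptor gene TNFRSF10B (0.06) were not called.

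In the remaining roles, no repair gene was called: XPC, DDB2 and POLH differed by 0.28, -0.66 and -0.06. Of 9 metabolic and redox targets, CMBL, a hydrolase gene, was the largest difference of the whole list, with 0.21 and 0.05 CPM against 39.2 to 44.6 CPM (-8.26), and the lipid transporter ABCA12 was the other one called (-1.86, and -1.58 with adjusted p = 0.067 without DMSO 2). TGFA, a ligand of the EGF receptor, had 0.05 and 0.22 CPM against 10.3 to 11.5 CPM (-6.29). KITLG, CYFIP2, MR1, DRAM1 and NINJ1 were called higher in the DMSO libraries, with differences of 1.23 to 1.82. CPM do not allow levels of different genes to be compared. Per length, in the TPM deposited by the authors, CDKN1A averaged 7.39 and MDM2 47.2 in the DMSO libraries, and 45.2 and 54.1 in the null libraries, so CDKN1A was below MDM2 in both lines and much closer to it in the null line. The transcript values of MDM2 did not add up to its gene count in every library, so its TPM is less certain.

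**Figure D2:**
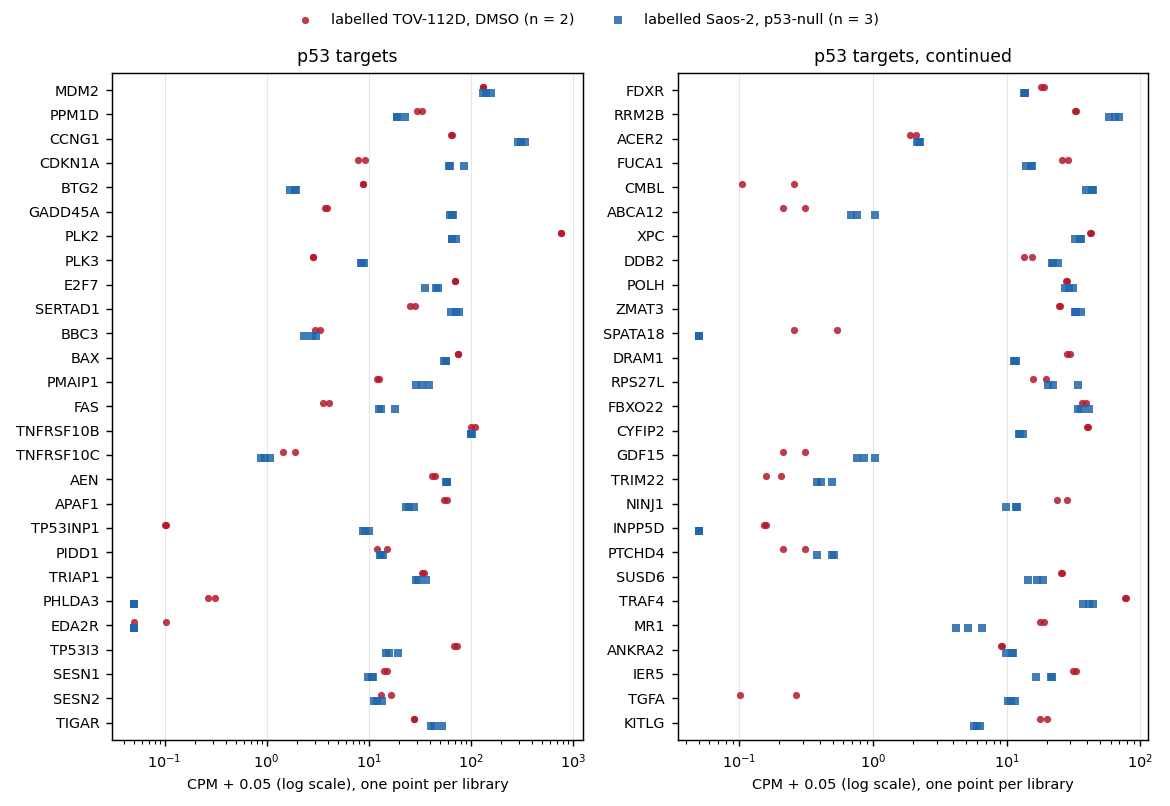
Level of the 54 p53 targets in every library, as CPM + 0.05 on a log axis, with DMSO libraries as circles and null libraries as squares. CDKN1A, GADD45A, CMBL and TP53INP1 lie to the right in the null libraries, PLK2 and TP53I3 in the DMSO libraries, and MDM2 and BBC3 at nearly the same level in both.

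Few regulators of p53 were called. Of 22 genes, 21 were tested, 5 were called higher in the DMSO libraries and 1 higher in the null libraries, and the median was 0.17. On the DMSO side were the p53 relative TP73 (24.8 and 25.6 CPM against 8.50 to 13.2 CPM, 1.13), MDM4, the MDM2 partner that silences p53 (33.4 and 34.1 CPM against 14.7 to 15.9 CPM, 1.15), and the paired acetyltransferases EP300 (197 and 199 CPM against 16.8, 25.8 and 25 CPM, 3.13) and CREBBP (186 and 194 CPM against 59.4, 94.7 and 97.4 CPM, 1.18). PPP1R13L, which encodes iASPP, an inhibitor of p53-driven death, was higher in the null libraries (43.9 to 59.0 CPM against 6.78 and 7.18 CPM, -2.93). None of the 5 kinases was called, although CHEK1 (-0.72) and ATM (0.75) differed at the adjusted p alone. Without null 1, 3 regulators were called higher in the DMSO libraries, and CREBBP (0.98) and TP73 (0.95) were no longer among them. TP63 was too low to test.

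Genes of the RB pathway, which holds back the G1 to S transition through E2F factors, were called higher in the DMSO libraries in 3 of 24 cases and higher in the null libraries in 4, beside a background of 43.1% called. RB1 had 80.2 and 81.1 CPM against 89.4, 95.7 and 88.1 CPM, a difference of -0.18 (SE 0.08, adjusted p = 0.071). Its relative RBL2 was higher in the DMSO libraries (67.6 and 68.7 CPM against 30.5 to 31.8 CPM, 1.13). CDKN2A, the locus of p16 and p14ARF, had 109 and 107 CPM against 54.9, 55.4 and 64.0 CPM, a difference of 0.89 (SE 0.09) that stayed under the 2-fold limit. Its neighbour CDKN2B was higher in the null libraries (6.52 and 7.01 CPM against 13.3 to 15.6 CPM, -1.10), as were CDKN2D (-1.68) and E2F5 (-1.57). CDKN1C, the inhibitor p57, was low in both lines (2.02 and 1.47 CPM against 0.35 to 0.66 CPM). Of 4 genes of 9p21, 2 were called higher in the null libraries. Beside CDKN2A and CDKN2B, MTAP, often lost with CDKN2A, was not called (65.0 and 60.1 CPM against 78.9 to 88.9 CPM), and DMRTA1 was higher in the null libraries (6.19 to 7.11 CPM against 0.47 and 0.22 CPM).

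Telomere genes included 1 called higher in the DMSO libraries and 4 called higher in the null libraries, of 16. The former was TERT, the catalytic subunit of telomerase, which many osteosarcomas replace by the recombination route called ALT. It had 8.28 and 9.24 CPM in the DMSO libraries and 1.53, 2.25 and 1.98 CPM in the null libraries (difference 2.19, SE 0.18, adjusted p = 4.7e-06), so reads of TERT were present in both. ATRX, whose loss goes with ALT, had 154 and 148 CPM against 61.3, 95.8 and 85.1 CPM (0.91, not called, and 1.04 and called without null 2). NOP10 (-1.60) and GAR1 (-1.26) of the telomerase ribonucleoprotein and TERF1 (-1.36) and TERF2IP (-1.25) of shelterin, the complex that caps telomeres, were the 4 higher in the null libraries.

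Of 23 heat shock genes tested, 10 (43.5%) were called, beside 43.1% of all genes, and 9 of the 10 were higher in the null libraries. Heat shock factor 1 switches them on through inverted repeats of the bases GAA, and their products are chaperones such as HSP70 and HSP90 that refold proteins. The promoters of 3 members are shown to place these repeats, from 250 bases before to 50 bases after the start in RefSeq on GRCh38.p14, with every GAANNTTC or TTCNNGAA in capitals, overlapping matches included. Both motifs read the same on either strand, and the 4 matches of HSPA8 form 2 overlapping pairs. HSPA8 is on the minus strand of chromosome 11, HSPA1A on the plus strand of chromosome 6 and HSPB1 on the plus strand of chromosome 7.
HSPA8 chr11:123062087-123062386: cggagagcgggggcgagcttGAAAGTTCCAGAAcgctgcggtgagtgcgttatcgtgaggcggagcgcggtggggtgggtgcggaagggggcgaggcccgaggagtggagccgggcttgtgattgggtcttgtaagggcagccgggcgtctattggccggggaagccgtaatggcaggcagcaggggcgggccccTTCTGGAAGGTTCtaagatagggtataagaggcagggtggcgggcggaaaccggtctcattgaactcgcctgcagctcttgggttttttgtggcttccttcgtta
HSPA1A chr6:31815293-31815592: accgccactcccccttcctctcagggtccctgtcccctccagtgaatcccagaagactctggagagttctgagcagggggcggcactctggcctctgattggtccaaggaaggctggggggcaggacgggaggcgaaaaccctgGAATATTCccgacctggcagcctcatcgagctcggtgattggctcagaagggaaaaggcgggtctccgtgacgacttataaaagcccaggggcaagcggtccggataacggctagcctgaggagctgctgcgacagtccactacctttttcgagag
HSPB1 chr7:76302423-76302722: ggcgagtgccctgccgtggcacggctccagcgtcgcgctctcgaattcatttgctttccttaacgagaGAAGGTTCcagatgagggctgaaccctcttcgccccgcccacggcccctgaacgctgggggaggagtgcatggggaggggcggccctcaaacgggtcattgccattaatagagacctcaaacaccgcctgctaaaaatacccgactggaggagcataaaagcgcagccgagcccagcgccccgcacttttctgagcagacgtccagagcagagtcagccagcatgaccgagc
HSPA8 was called higher in the null libraries, HSPB1 higher in the DMSO libraries, and HSPA1A in neither, and all 3 windows hold a motif. Over 35116 promoters of the same length, 6.77% hold GAANNTTC, 7.74% TTCNNGAA and 13.5% either. Counted per gene over any listed start, 15 of 22 heat shock genes with a promoter hold one (68.2%) against 16.2% of 27305 genes. By call, a motif was in 4 of 9 genes higher in the null libraries, 9 of 11 not called and the 1 higher in the DMSO libraries.

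Of 25 heat shock genes, 23 were tested, 9 were called higher in the null libraries and 1 higher in the DMSO libraries, with a median of -0.72. The summed level was 11035 and 11040 CPM in the DMSO libraries and 19966 to 20924 CPM in the null libraries. HSPA8, the constitutive HSP70, had 1528 and 1511 CPM against 5029, 4227 and 4200 CPM, a difference of -1.56 (SE 0.11). HSP90AA1, the inducible HSP90, had 2454 and 2482 CPM against 6579 to 6767 CPM (-1.43), while the constitutive HSP90AB1 was not called (-0.14). The HSP90 cochaperones STIP1 (-1.10) and AHSA1 (-1.09), the nucleotide exchange factors HSPH1 (-1.15) and BAG3 (-1.26), the J-domain gene DNAJB4 (-1.50), the testis HSP70 gene HSPA2 (-1.90) and the mitochondrial co-chaperonin HSPE1 (-1.01) went the same way, HSPE1 falling short of the limit without null 1 (-0.90) or DMSO 2 (-0.99). HSPB1, the small heat shock protein HSP27, had 353 and 334 CPM against 160 to 181 CPM, a difference of 1.00 that lay at the 2-fold limit and was not called without DMSO 1 (0.96) or null 2 (0.95). The factors HSF1 (0.12) and HSF2 (0.11) did not pass the test.

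The stress-inducible HSP70 gene HSPA1A had 228 and 208 CPM in the DMSO libraries and 162, 185 and 199 CPM in the null libraries. The difference of 0.26 (SE 0.10, adjusted p = 0.042) was far under the 2-fold limit. Its counts are the sum of 5 gene identifiers under the same symbol, and the lines put their reads on different ones. ENSG00000237724 had 4399 and 3819 counts in the DMSO libraries and 0 in the null libraries, and ENSG00000235941 had 0 in the DMSO libraries and 3281, 3618 and 4217 in the null libraries. All 6 libraries labelled TOV-112D had at most 3 counts on ENSG00000235941, and all 6 labelled Saos-2 had 0 on ENSG00000237724, so this split followed the label of the line over the whole series. HSPA1A and HSPA1B are near-identical copies, so their separate values are uncertain. Among tested symbols, 717 stood for more than 1 identifier, and the identifier with most counts differed between the lines in 132 of them.

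The integrated stress response, by which cells with stalled translation raise ATF4 and its targets, had members called in both directions. Of 23 genes tested, 4 were called higher in the DMSO libraries and 7 in the null libraries, with a median of -0.02. The 4 were genes of amino acid supply: SLC7A11, the cystine importer that p53 represses (290 and 298 CPM against 12.6, 16.7 and 12.8 CPM, difference 4.39, SE 0.12, 21-fold), the serine and proline enzymes PHGDH (1.24) and PYCR1 (1.37), and the leucine importer SLC7A5 (1.14). On the null side were the factors ATF3 (1.76 and 1.41 CPM against 11.6 to 12.3 CPM, -2.89) and DDIT3 (-1.55), the phosphatase subunit PPP1R15A (17.2 and 15.1 CPM against 58.6 to 68.9 CPM, -2.01), VLDLR (-4.30), CHAC1 (-1.21) and the enzymes ASNS (-1.56) and PSPH (-1.42). ATF4 itself differed by -0.81 and was not called.

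Few genes of the unfolded protein response of the endoplasmic reticulum were called. Of 20 genes, 3 were called higher in the DMSO libraries, namely the mannosidase-like EDEM1 (66.4 and 71.4 CPM against 22.1 to 27.7 CPM), CRELD2 (44.3 and 44.3 CPM against 15 to 18.2 CPM) and the disulfide isomerase PDIA4 (522 and 530 CPM against 238 to 260 CPM). DNAJB9 was higher in the null libraries (10.9 to 16.6 CPM against 5.64 and 5.11 CPM). HSPA5, the chaperone BiP and the usual readout of this response, had 695 and 682 CPM against 663, 665 and 650 CPM, with a difference of 0.06 (adjusted p = 0.46).

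Among 29 tested genes of NRF2 and redox control, 2 were higher in the DMSO libraries and 6 higher in the null libraries. That is 27.6% called, beside 43.1% of all genes. GPX1, the cytosolic glutathione peroxidase, had 160 and 161 CPM in the DMSO libraries and 5 counts in all in the null libraries, a ratio of 1959 (counting interval 839 to 6034). GSTP1, a glutathione transferase, had 250 and 247 CPM against 55.5 to 64.7 CPM. The classic NRF2 target NQO1 was on the other side, with 28.7 and 30.0 CPM against 311, 255 and 262 CPM (-3.23), together with OSGIN1 (46.5 to 55.1 CPM against 1.04 and 0.43 CPM), ME1 (-3.26), PRDX1 (-1.41), GSTM3 (-1.39) and FTL (-1.17). HMOX1 (-0.68), GCLM (-0.78) and TXNRD1 (-0.98) were not called, TXNRD1 passing the limit without null 2 or null 3 (-1.02), and the aldo-keto reductase genes AKR1C1, AKR1C2 and AKR1C3 were under 1 CPM in all 5 libraries. Of the 4 tested genes of the metallothionein and zinc list, 2 were called. Both tested metallothioneins, which bind zinc and copper, were higher in the null libraries: MT2A had 9.89 and 9.30 CPM against 229, 210 and 259 CPM (-4.60), and MT1X 7.82 and 7.99 CPM against 21.1 to 26.2 CPM (-1.60).

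Immediate early genes, which growth factors and stress switch on within minutes, were higher in the null libraries in 9 of 17 cases and higher in the DMSO libraries in 3, with a median of -1.02. FOSL1, an AP-1 subunit, had 10.3 and 8.43 CPM against 303 to 335 CPM (-5.10). FOS (7.40 and 8.43 CPM against 23.6, 39.7 and 39.9 CPM), JUN (18.3 and 16.4 CPM against 62.2, 86.2 and 83.3 CPM) and EGR1 (142 and 155 CPM against 247, 388 and 379 CPM) were lowest of the null libraries in null 1. KLF4 had 1 count in each DMSO library and 15.1 to 18.8 CPM in the null libraries, and IER3 8.96 and 8.21 CPM against 46.8 to 55.2 CPM. The 3 higher in the DMSO libraries were EGR3 (10.5 and 11 CPM against 0.10 to 0.56 CPM), JUND (167 and 168 CPM against 29.3 to 36.8 CPM) and NR4A1 (41.1 and 36.9 CPM against 9.88 to 12.1 CPM). MYC had 345 and 349 CPM against 161 to 185 CPM, a difference of 0.99 just under the limit, which it passed without DMSO 1 (1.00) or null 3 (1.03).

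The interferon genes also had members called in both directions. Of 26 tested, 6 were higher in the DMSO libraries and 11 higher in the null libraries. CGAS, the sensor of cytosolic DNA, had 1 count in all in the DMSO libraries and 43.2, 42.3 and 39.3 CPM in the null libraries, and its adaptor STING1 had 0.26 and 0.11 CPM against 5.42 to 6.42 CPM. IFIH1, the RNA sensor MDA5, was the reverse, with 275 and 275 CPM against 23.3 to 26.8 CPM (3.49). IFITM3, a block to virus entry (0.52 and 0.71 CPM against 97.0 to 114 CPM), and PSMB8, an immunoproteasome subunit (0 and 0.22 CPM against 29.6 to 38.7 CPM), were near 0 in the DMSO libraries. IFI44L (15.3 and 15.7 CPM against 0.05 to 0.44 CPM) and OAS3 (82.2 and 85 CPM against 32.1 to 38.9 CPM) were higher in the DMSO libraries. ISG15 (-0.42) and MX1 (0.01) were not called.

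SWI/SNF complexes use the ATPases SMARCA4 (BRG1) or SMARCA2 (BRM) to move nucleosomes. SMARCA4 was transcribed at a low level in both lines, with 18 and 20.0 CPM in the DMSO libraries and 11.5, 11.9 and 13.6 CPM in the null libraries (difference 0.62, SE 0.12, not called). SMARCA2 was near 0 in the DMSO libraries, with 1.14 and 0.92 CPM against 19.4, 30.1 and 27.4 CPM, a difference of -4.62 (SE 0.27, adjusted p = 5.4e-07) or 24.6-fold. Of 26 subunits tested, 7 were called higher in the DMSO libraries and 2 in the null libraries. The former were SMARCD3 (58.0 and 56.8 CPM against 3.68 to 5.24 CPM, 3.66), SMARCE1 (1.16), ARID1A (1.36), ARID1B (1.56), BCL7A (1.15), PHF10 (1.02, and 0.95 without null 1) and BICRA (39.5 and 38.9 CPM against 6.27, 11.2 and 11.2 CPM, 2.03), and the latter SMARCA2 and DPF3. Among the null libraries, ARID1A (109 CPM) and ARID1B (48.7 CPM) were lowest in null 1.

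Of 6 genes often used as references, 2 were called, GAPDH and PPIA, both higher in the null libraries. GAPDH, a glycolytic enzyme, had 2195 and 2246 CPM against 7818, 6879 and 7384 CPM, a difference of -1.73 (SE 0.09, adjusted p = 3e-07) or 3.32-fold. PPIA, cyclophilin A, differed by -2.22. ACTB (-0.46), RPLP0 (-0.46) and TBP (-0.43) were not called, and HPRT1 had 90.4 and 95.9 CPM against 107, 87.7 and 85.3 CPM.

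**Figure D3:**
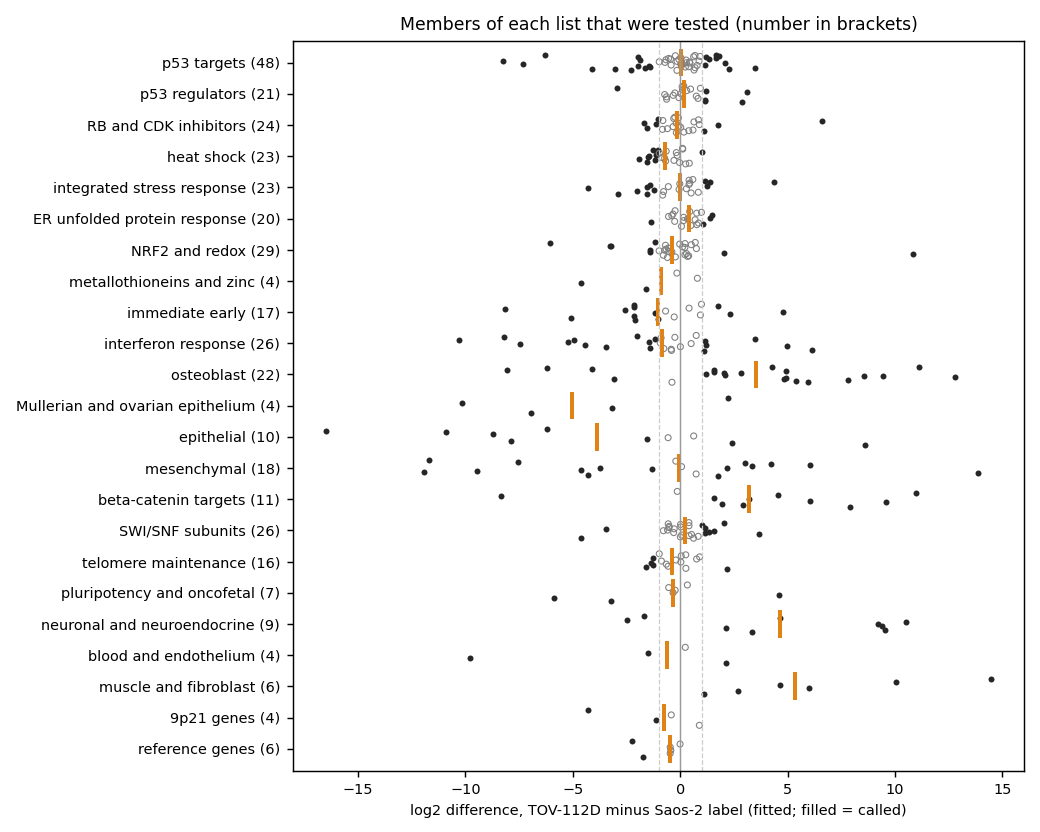
Differences by gene list. Each point is a tested gene, by its log2 difference, DMSO minus null, with the median of each list marked. The osteoblast and beta-catenin lists have medians of 3.55 and 3.19, the heat shock and immediate early lists lie below 0 at -0.72 and -1.02, and the p53 targets spread around 0.05.

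The largest differences were of genes silent in either line. In the direction of the DMSO libraries they were COL3A1, a type III collagen chain (8114 and 7986 CPM against 7 counts in all), GCG, the glucagon precursor (2184 and 2164 CPM against 1 count), ALDH1A1, a retinal dehydrogenase (1037 and 1003 CPM against 2 counts), the motor protein gene KIF1A (693 and 657 CPM against 0, at least 4399-fold), the imprinted splicing gene SNRPN (196 and 191 CPM, at least 1262-fold) and the prolactin gene PRL (171 and 166 CPM, at least 1100-fold). In the direction of the null libraries they were the cancer-testis genes GAGE12F (at least 7458-fold), GAGE2A (at least 2349-fold), GAGE13 (at least 1432-fold) and MAGEA4 (at least 5564-fold), the keratin KRT18, and TM4SF1, a surface tetraspanin-like protein (at least 2241-fold). Each of these 6 had 0 counts in both DMSO libraries. The GAGE genes are near-identical copies, so the split among them is uncertain.

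Such genes were counted by a mean of at least 10 CPM in a line and at most 3 counts in each library of the other. The DMSO libraries had 164 of them, 1.68% of the 9789 genes at that level, with 63 at 0 counts in every null library. The null libraries had 113, 1.19% of 9465 genes, with 48 at 0 counts in both DMSO libraries. Of the 164, 106 also had at most 3 counts in each of the 3 p53-WT libraries, and of the 113, 66 also had at most 3 counts in each of the 4 libraries with UCI-1001 or UCI-1014. The X chromosome held 15 of the 163 placed genes of the DMSO libraries (9.20%, against 3.51% of all genes at 10 CPM there) and 22 of the 113 of the null libraries (19.5% against 3.38%). Many of the 22 belong to the cancer-testis families GAGE, MAGEA and XAGE, some as near-identical copies, so they are not independent genes.

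The difference between the lines also moved with transcript length. In 5 equal groups of transcript length, from the shortest genes (up to 1152 bases) to the longest (from 3661 bases), the median log2 difference was -0.54, -0.19, -0.03, 0.10 and 0.40. The share of genes called higher in the DMSO libraries was 15.5% in the shortest group and 30.2% in the longest, and the share higher in the null libraries 33.3% and 12.7%. A trend with length was also present within the null group, where null 1 minus the mean of null 2 and null 3 had medians of 0.16 in the shortest and -0.18 in the longest group. Between the DMSO libraries the medians were 0.0043 and -0.0046. With each library's trend on length removed, a step chosen after seeing these values, genes without a matched length dropped out, p53 regulators higher in the DMSO libraries went from 5 of 21 to 0 of 14, SWI/SNF subunits from 7 of 26 to 4 of 19, and p53 targets from 9 of 48 to 8 of 42. Genes of the NRF2 and redox list higher in the null libraries went from 6 of 29 to 2 of 18, and FTL was no longer among them. CREBBP had 0.66 and EP300 had no matched length. What causes this trend was not tested.

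**Figure D4:**
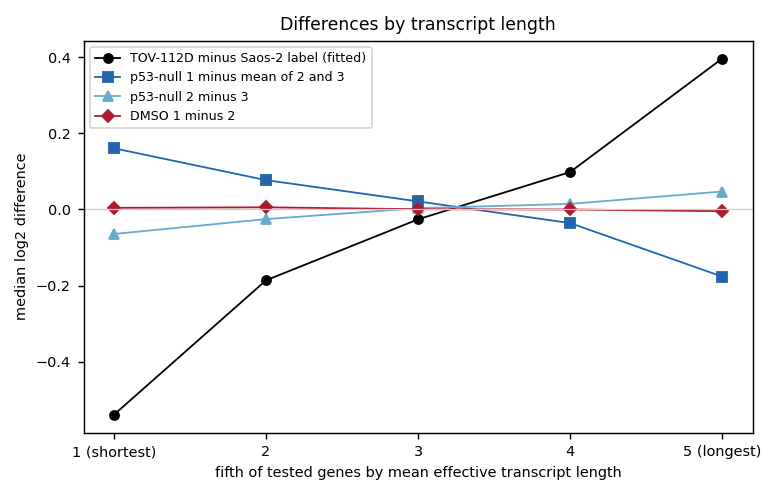
Median log2 difference in 5 equal groups of transcript length, from short to long. The line contrast climbs from -0.54 to 0.40, null 1 against the other null libraries goes from 0.16 to -0.18, and the DMSO libraries stay near 0 against each other.

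The same contrast of lines could be drawn in libraries that share none with these 5. TOV-112D cells with UCI-1001 were set against p53-WT Saos-2 cells, so compound and p53 differ as well, and 3946 of 15300 genes (25.8%) were called higher in TOV-112D and 4162 (27.2%) higher in Saos-2. Of the genes called higher in the DMSO libraries and tested there, 2363 of 3299 (71.6%) were called the same way and 174 the opposite way. Of those called higher in the null libraries, 2187 of 2899 (75.4%) were called the same way and 56 the opposite way. With UCI-1014 in place of UCI-1001 the background was 26.4% and 27.5%, and 2297 of 3278 and 2145 of 2905 genes were called the same way. Osteoblast genes were higher in TOV-112D in 16 of 22 cases and beta-catenin targets in 9 of 11, with KRT18 at 0 CPM in the UCI-1001 libraries and at 476 CPM in the p53-WT libraries. The p53 and heat shock lists gave other counts there, where compound and p53 were present: 43 of 51 p53 targets were higher in the p53-WT libraries and 1 in the UCI-1001 libraries, and of 25 heat shock genes 8 were higher in the UCI-1001 libraries and 1 in the p53-WT libraries.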

How the data were processed

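RNA of cultured TOV-112D and Saos-2 cells was extracted with a column kit and sequenced by a service company. Per the submitters' processing notes and the study's methods, the authors quantified reads with kallisto v0.48.0 on GRCh38, added up the estimated counts per Ensembl gene, made them integers and tested them with DESeq2 v1.38.3. The deposited gene table holds these counts, not normalized, for 40295 identifiers. The authors also deposited, for each library, the estimated counts, the TPM and the effective lengths of transcripts. TPM served to compare levels between genes and as weights when effective lengths were averaged to give transcript lengths.

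Rows with the same symbol were summed, giving 36486 features. Rows without a symbol, or with a symbol that reads as a date (0.622% of counts), stayed in library sizes and tests under their identifier and are not named. Of the identifiers, 87.8% were found in GENCODE release 44, the source of coordinates. A retired symbol was matched by gene identifier for CCN2, STING1 and RIGI.

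The 5 libraries were fitted in edgeR 4.0.16 (R 4.3.3; TMM, filterByExpr, glmQLFit, glmQLFTest) with no covariate and 3 residual degrees of freedom, and p-values were adjusted by Benjamini-Hochberg over all 14836 genes tested. The common biological coefficient of variation was 8.78%. A bound against a line at 0 counts uses 3 counts per library, and intervals of ratios are 95% counting intervals. The fit was also run on simulated counts of this comparison, with 200 genes changed in each run. At an adjusted p under 0.05 it called 89.9% of genes changed by 1 on the log2 scale and 97.3% of those changed by 2. Of such calls, 11.9% were of unchanged genes, a larger share than the adjusted p limit of 0.05 is meant to allow. These shares depend on how many genes change, and 78.3% of genes differed in the real data, so they do not give the error rate there. Alternatives used DESeq2 1.42.0 where named.

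The members and the 23 gene lists were chosen with earlier results of these data known, and the lists are described by counts and medians, without a set test. Named by rule were 14 fixed genes, the 6 largest differences in each direction with at least 10 CPM, the 3 largest called members of each list in each direction with at least 1 CPM, and list members with at most 3 counts in every library of a line and at least 10 CPM in the other. Some genes that the rule or the lists hold count in the totals but are not reported here. Other genes named were chosen after their values were seen. HOX, GAGE, MAGEA and imprinted genes were grouped by symbol after seeing the data.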

Additional observations from a re-analysis of the deposited data

How the results depend on the processing

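The counts over the whole comparison kept their direction and lay within 1.5 times of the values given under each of the alternatives run, which were RLE and upper-quartile scaling, no filter on low counts, 1 row per Ensembl identifier, a fit of all 12 libraries, a transcript length offset, the same genes without it, removal of the length trend, a replicate block, a test against a log2 difference of 1, DESeq2 and leaving out each library. The 2 settings on genes without an offset and on the length trend were added after seeing the data. Genes called higher in the DMSO libraries numbered 3254 to 3406 with a library left out and 2607 to 3727 under the other settings. Genes called higher in the null libraries numbered 2845 to 3042 and 2223 to 3386. Genes past the adjusted p alone numbered 10223 to 12249 and 8965 to 12255. Called p53 targets numbered 20 to 22 and 18 to 24, and called members over the lists 188 to 198 and 147 to 202, against 194. Of 690 counts by list and direction, 631 lay within 1.5 times of the value given and 59 moved by more. With TOV-112D cells under UCI-1014 in place of UCI-1001, 4442 genes were called the same way as here, against 4550.

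Of the values of 120 named genes under these settings, 1703 kept direction and call, 14 lost the call, 1 gained it and 1 reversed. HSPA1A reversed to -14.81 with 1 row per Ensembl identifier, where its reads are no longer summed. Removal of the length trend took the call from CREBBP (0.66), RBL2 (0.86), MT1X (-0.61), NOP10 (-0.74) and GAR1 (-0.90) and gave it to CDKN2A (1.37), and the length offset took it from CDKN2B (-0.92), DNAJB9 (-0.81) and BICRA (0.80).

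Replicate numbers recur in both groups, and the deviations of libraries with the same number correlated at -0.0418 and 0.0265. With 2 DMSO libraries the deviations from their mean are mirror images, so each value recurs with the opposite sign. These values therefore cannot decide whether the numbers pair the libraries. With the replicate block, 3391 and 3047 genes were called in the 2 directions and 11110 passed the adjusted p alone.

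With 2 libraries against 3, the design cannot separate the line from medium, time or batch. Genes under the count filter were not tested, and a gene at 0 counts is known only to lie under 3 counts per library. Leaving out a DMSO library leaves a single one, which is then assumed to vary like the null libraries.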

Other observations

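The HOX clusters, which set position along the body axis, differed between the lines by cluster. Of 9 tested HOXC genes, 6 were called higher in the DMSO libraries and 0 higher in the null libraries. HOXC12 had 160 and 151 CPM in the DMSO libraries and HOXC11 61.0 and 59.4 CPM, and both were at 0 counts in all 3 null libraries, so they were at least 1016-fold and 392-fold higher. HOXC8 had 20.3 and 18.4 CPM against 23.3 to 27.5 CPM and was not called. The 5 tested HOXD genes were called higher in the null libraries, where HOXD13 had 6.91, 4.91 and 5.76 CPM against 0 counts and HOXD8 5.71 to 7.72 CPM against 0.47 and 0.43 CPM. Within HOXA, 7 of 11 genes were higher in the DMSO libraries, among them HOXA3 (29.6 and 30.3 CPM against 2.03 to 2.51 CPM), while HOXA7 (24.7 to 28.7 CPM against 9.06 and 9.24 CPM) and HOXA9 (16.7 to 20.2 CPM against 3.52 and 2.94 CPM) were higher in the null libraries. Within HOXB, 5 of 9 tested genes were higher in the DMSO libraries and HOXB7 was higher in the null libraries.

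Cancer-testis genes of the X chromosome, which are normally limited to germ cells, were carried by the null libraries. The 13 GAGE symbols summed to 2948, 2136 and 2326 CPM there and to 1 count in all in the DMSO libraries. The 13 MAGEA symbols summed to 1716, 1459 and 1512 CPM against 5 counts in all, with MAGEA4 at 855 to 984 CPM and MAGEA3 at 174 to 199 CPM. Near-identical copies make the split within each family uncertain, but not its sum. Of paternally expressed imprinted genes, PEG3 had 114 and 115 CPM in the DMSO libraries and 0 counts in the null libraries (at least 745-fold), and MEST had 13.6 and 13 CPM against 0.15 to 0.33 CPM, whereas PEG10 was not called (236 and 250 CPM against 244 to 324 CPM). Among nuclear chromosomes, the median log2 difference was highest on chromosomes 21 (0.67), 17 (0.50) and X (0.45) and lowest on chromosomes 5 (-0.57) and 7 (-0.45), beside -0.01 over all genes. In the UCI-1001 and p53-WT libraries these medians were 0.72, 0.44, 0.43, -0.52 and -0.43.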
